A study of Mus musculus with 8 samples.

Results

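The sialic acid-binding immunoglobulin-like lectins (Siglecs) were followed in primary cultured mouse microglia with and without added IgG. The members were the 7 receptor genes Siglec1, Siglece, Siglecf, Siglecg, Siglech, Cd33 and Cd22, taken by gene symbol from the 55385 genes of the count table. All 7 have a row in the table. Of these, 5 passed the filter on low counts and are among the 17537 genes tested, while Siglecg and Siglech did not pass it.

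The cells were wild-type microglia of both groups, grown from the neocortices and hippocampi of newborn (P0) mice, with several brains pooled in a culture. They were shaken off after 12 days, replated for 3 days and, at day 15 in vitro (DIV15), kept for 24 h with 10 µg/ml IgG or without it. The control is labelled untreated, and the study's methods name PBS as its addition. There were 4 control and 4 IgG libraries, and the labels give libraries of equal number in both groups a shared date, which makes 4 pairs. Whether both libraries of a date came from 1 culture is not stated. These cells had grown in serum outside the brain, and the labels give no strain of the pups.

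Siglecs are surface receptors of immune cells that bind sialic acid, the sugar that caps most glycans of vertebrate cells. Most members carry in their cytoplasmic tail an immunoreceptor tyrosine-based inhibitory motif (ITIM), which Src-family kinases phosphorylate and which then recruits the phosphatases SHP-1 and SHP-2. Others have a short tail and a positively charged residue in the membrane, with which they pair with the activating adaptor DAP12. Microglia use these receptors to restrain phagocytosis and inflammatory signaling on contact with sialylated cells. Siglec1 (sialoadhesin, CD169) stands apart as a long adhesion receptor of macrophages with no such motif, and it is known as an interferon-inducible gene.

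The coding sequences show which members carry an inhibitory motif. In the longest complete GENCODE M21 coding sequence of each member, the most hydrophobic window of 19 codons was taken as the membrane stretch, and the ITIM consensus of 6 codons was searched after it. Siglece and Siglecf had 1 match each, Siglecg and Cd22 had 3 each, and Siglec1, Siglech and Cd33 had 0. The tail after the window was 37 codons long in Siglec1, 48 in Siglech, and 95 to 141 in the other 5. The stretches below are coding strand, 5′ to 3′, on GRCm38, with the 6 motif codons in capitals for Siglece (chr7:43651579-43651608, minus strand), Siglecf (chr7:43358664-43358693, plus strand) and the 3 matches of Cd22 (chr7:30867488-30867517, chr7:30866594-30866623 and chr7:30866534-30866563, minus strand). They are shown for the tested members with a match, and the 3 matches of Siglecg, which was not tested, are not printed.
Siglece ITIM: gaagagATACATTATGCGACCCTCagcttt
Siglecf ITIM: cctgaaCTCCACTATGCCTCCCTCtccttc
Cd22 first match: gacaccGTTAGTTATGCCATCTTGcgcttt
Cd22 second match: gagagcATCCATTACTCAGAGCTGgttcag
Cd22 last match: gaagacGTAGACTATGTGACCCTCaagcac

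For the members without a match, tyrosine codons after the window and lysine codons inside it were read. Siglec1 had 1 tyrosine codon after the window, at codon 1666 of 1701. Siglech also had 1, at codon 319, and Cd33 had 2, at codons 294 and 332. Siglech and Cd33 both had a lysine codon inside the membrane window, at its codon 9 and codon 3 (codons 274 and 252 of the coding sequence; chr7:55771647-55771673, plus strand, and chr7:43530235-43530261, minus strand). A lysine codon also stood at codon 17 of the 19 in the window of Siglecf. In the lines below the tyrosine codon of Siglec1 and the lysine codons of Siglech and Cd33 are in capitals.
Siglec1 tyrosine: ggtctggtggccTATcacacctggaga
Siglech lysine: gaagcggctatcAAAttcctgcttctt
Cd33 lysine: gaggcaacggtcAAGctcctgattctt

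Libraries held 21287816 to 23703216 counts, so the 3 counts that remain possible at a count of 0 corresponded to 0.124 to 0.147 CPM (a count divided by the TMM-corrected library total and put on one scale for all libraries). The IgG libraries of pairs 1 and 3 stood apart, with 4.85% and 5.59% of counts on mitochondrial genes against 1.97% to 2.41% in the other 6. Microglial markers were detected throughout, with a summed level over 8 genes of 6001 to 6803 CPM in control and 6823 to 7384 CPM in IgG. The 6 border macrophage markers, none of them at 0 throughout, summed to 218 to 309 CPM in control and 310 to 441 CPM in IgG, and the 6 oligodendrocyte markers to 1142 to 1748 and 997 to 1665 CPM. Markers of B cells, eosinophils and neutrophils had low sums. The 6 B cell genes summed to 0.271 to 0.637 CPM, the 6 eosinophil genes to 0.271 to 1.25 CPM with Prg2, Prg3 and Il5ra at 0, and the 7 neutrophil genes to 0.622 to 2.23 CPM with Ly6g, S100a9, Mpo and Elane at 0. The 7 plasmacytoid dendritic cell genes summed to 139 to 197 CPM, of which Lair1 alone had 133 to 191 CPM, with Klk1 and Ly6d at 0. In RNA of whole cultures, a change in the number of cells of a type and a change in RNA per cell cannot be told apart.

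Per length of exon, Siglec1 was the most abundant member in every library. In control its level was 42.7 ± 9.35 CPM per kb (SD, n = 4), 3.90-fold that of Siglecf at 10.9 ± 1.86, followed by Cd22 at 7.85 ± 0.554, Cd33 at 4.88 ± 0.768, Siglece at 0.311 ± 0.285, Siglech at 0.0496 ± 0.0458 and Siglecg at 0.00216 ± 0.00431 CPM per kb. The control ranges of Siglec1, Siglecf, Cd22 and Cd33 did not overlap, nor did that of Cd33 overlap that of Siglece. Siglece overlapped Siglech, and Siglech overlapped Siglecg. With IgG the order of Siglecf and Cd22 turned round, at 8.17 ± 0.892 and 8.67 ± 0.910 CPM per kb, and their ranges overlapped. The IgG level of Siglec1 was 71.5 ± 29.3 CPM per kb, 8.24-fold that of Cd22. These levels are descriptions with no test.

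**Figure D1:**
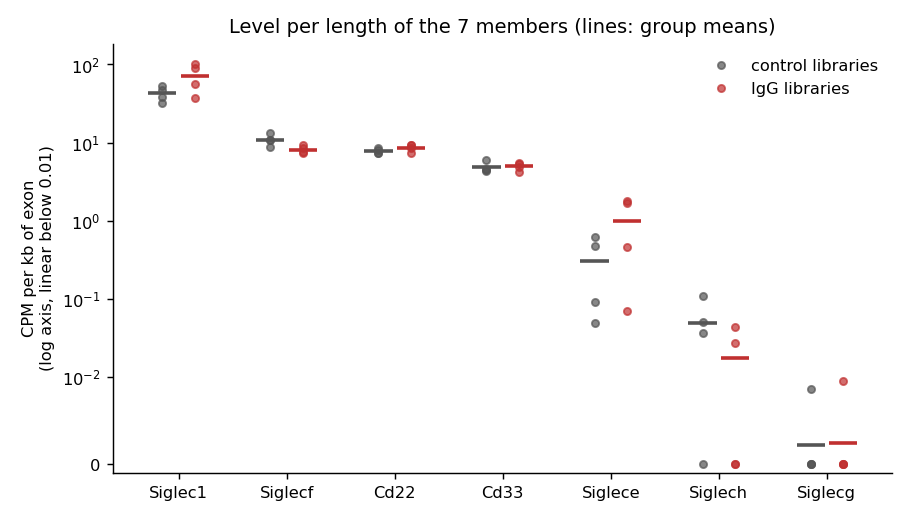
Level per length of the 7 members: CPM per kb of exon (vertical, log axis that is linear below 0.01) for each member (horizontal), with 1 point per library, grey for control and red for IgG, and lines at the group means. Siglec1 lies highest in all 8 libraries, and Siglech and Siglecg lie at the bottom, with some libraries at 0.

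Siglec1 (ENSMUSG00000027322, chr2:131069220-131086765, minus strand) was the member with the most counts in each library, from 5369 to 15671. Its levels were 382, 272, 335 and 231 CPM in control libraries 1 to 4 and 725, 406, 641 and 270 CPM in IgG libraries 1 to 4. Each IgG library was above the control of its own pair, whereas IgG library 4 lay below control libraries 1, 2 and 3, so the groups overlapped. Group means were 305 ± 66.8 CPM in control and 511 ± 210 CPM in IgG (SD, n = 4 each).
The fitted log2 fold change was 0.67 with a standard error of 0.13, or 1.59-fold (95% interval 1.28 to 1.96), with an edgeR quasi-likelihood p of 0.000996 and an adjusted p of 0.111 over all genes. Within pairs the log2 changes were 0.92, 0.58, 0.94 and 0.22. The 2 larger ones belong to the pairs whose IgG library had the high mitochondrial share, and without pairs 1 and 3 the fitted log2 change was 0.40 (edgeR adjusted p = 0.245). Control libraries 1 and 3 were also above control libraries 2 and 4, at 382 and 335 against 272 and 231 CPM. The mitochondrial share of control libraries 1 and 3 was 2.41% and 2.32%. Leaving out pair 4, which had the smallest change, gave 0.80 with an edgeR adjusted p of 0.0160, in a fit that called 1.04% of all genes, and it was the one pair whose removal brought Siglec1 past the threshold. Without the pairs in the model the edgeR p was 0.0261 and the adjusted p 0.692. Siglec1 is also a gene of border macrophages, whose 6 markers had a higher sum in the IgG libraries, as given above. Most of that sum was Ms4a7, with 161 to 230 CPM in control and 258 to 335 CPM in IgG, the one called of the 4 tested (log2 change 0.61). Mrc1 and Pf4 were not called, F13a1 was lower in all 4 pairs (log2 change -0.31, not called), and Lyve1 and Cd163 were at 0 to 0.225 CPM. The sum of the 8 microglial markers was also higher in IgG without overlap, with Aif1 called (log2 change 0.69). The part of the mitochondrial share, of the date, of border macrophages and of microglial markers in these values was not tested.
Siglec1 made up 66.9% to 78.7% of the summed CPM of the 7 members in control and 72.8% to 86.6% in IgG.

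Siglece (ENSMUSG00000030474, chr7:43651070-43660161, minus strand) is an inhibitory receptor of myeloid cells and had the largest fitted change of the 5 tested members, at low counts. It had 28, 2, 21 and 4 counts in control libraries 1 to 4 and 72, 3, 64 and 19 counts in IgG libraries 1 to 4. In CPM these were 1.16, 0.0902, 0.879 and 0.172 in control and 3.33, 0.130, 3.14 and 0.865 in IgG. Libraries 1 and 3 were high and libraries 2 and 4 low in both groups, and the groups overlapped. Control library 2, at 2 counts, was under the 3 counts that remain possible at a count of 0.
The fitted log2 fold change was 1.70 with a standard error of 0.30, or 3.24-fold (95% interval 2.00 to 5.25), with an edgeR p of 0.000470 and an adjusted p of 0.0681. All 4 pairs were higher with IgG, by log2 changes of 1.45, 0.29, 1.74 and 1.87, of which that of pair 2 rests on 2 and 3 counts. These changes were taken with a prior count of 2 added, so they are smaller than the ratios of the CPM above. Without the pairs in the model the log2 change was 1.66 with a standard error of 0.87 and an edgeR p of 0.0860. In pairs 2 and 4 alone the gene did not pass the filter on low counts and was not fitted.

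Siglecf (ENSMUSG00000039013, chr7:43351341-43359531, plus strand), an inhibitory receptor best known from eosinophils, was lower with IgG. Its levels were 24.8, 37.4, 29.8 and 30.1 CPM in control libraries 1 to 4 and 21.2, 25.8, 23.8 and 20.3 CPM in IgG libraries 1 to 4, with 447 to 830 counts. The IgG library was below its control in all 4 pairs, and only control library 1 overlapped the range of the IgG group. Means were 30.5 ± 5.20 CPM in control and 22.8 ± 2.49 CPM in IgG (SD, n = 4 each).
The log2 fold change was -0.41 with a standard error of 0.10, or 0.751-fold (95% interval 0.638 to 0.884), with an edgeR p of 0.00368 and an adjusted p of 0.230. Within pairs it was -0.22, -0.53, -0.32 and -0.56 on the log2 scale, with the 2 larger differences in pairs 2 and 4. In pairs 2 and 4 alone the value was -0.55 with an edgeR adjusted p of 0.0221, in a fit that called 1.07% of all genes. Of the 6 eosinophil markers, Ccr3 was the one tested, with 6 to 16 counts in control and 11 to 27 in IgG. It was higher with IgG in all 4 pairs (log2 change 0.87, edgeR adjusted p = 0.450). The other 5 markers were at or below 3 counts in every library. The part of eosinophils in the Siglecf values was not tested.

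Cd33 (ENSMUSG00000004609, chr7:43524216-43544428, minus strand), whose human counterpart is a risk gene for Alzheimer's disease, was close to level between the groups. It had 36.0, 34.8, 34.0 and 46.8 CPM in control libraries 1 to 4 and 40.9, 32.7, 38.4 and 42.3 CPM in IgG libraries 1 to 4, higher in pairs 1 and 3 and lower in pairs 2 and 4. The log2 fold change was 0.03 with a standard error of 0.10 and a 95% interval of -0.20 to 0.26 (edgeR adjusted p = 0.921). Its sign turned under 6 alternatives, among them scaling by total counts alone, which gave -0.07.
Cd22 (ENSMUSG00000030577, chr7:30865402-30880342, minus strand) is the inhibitory co-receptor of B cells and is also found on microglia of the aged brain. Its levels were 40.8, 43.0, 37.2 and 37.4 CPM in control libraries 1 to 4 and 46.6, 43.6, 47.4 and 37.3 CPM in IgG libraries 1 to 4, and the groups overlapped. The log2 fold change was 0.14 with a standard error of 0.10 and a 95% interval of -0.09 to 0.36 (edgeR adjusted p = 0.623), and pairs 1 and 3 gave most of it, since in pairs 2 and 4 alone it was 0.01. The gene overlaps the antisense transcript Gm29439, with 1539 counts over the 8 libraries and a log2 fold change of 0.16, and reads of the overlap cannot be told apart where strand was not used. The interval of Cd33 reaches up to 0.26 and that of Cd22 up to 0.36 on the log2 scale.

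Siglech and Siglecg were at or near the detection limit. Siglech (ENSMUSG00000051504, chr7:55768178-55778925, plus strand), a DAP12-coupled receptor and a marker of homeostatic microglia and plasmacytoid dendritic cells, had 9, 0, 3 and 4 counts in control libraries 1 to 4 and 2, 0, 3 and 0 counts in IgG libraries 1 to 4. Siglecg (ENSMUSG00000030468, chr7:43408204-43418358, plus strand), an inhibitory receptor of B-1 cells, had 1 count in control library 1, 1 count in IgG library 1 and 0 in the other 6. A count of 0 allows up to 3 counts, or 0.130 CPM in IgG library 2 and 0.137 CPM in IgG library 4. Neither passed the filter on low counts. In the fit with no filter Siglech had a log2 change of -1.46 with a standard error of 1.25 (edgeR adjusted p = 0.895), a value that rests on 16 counts in control and 5 in IgG, and Siglecg had 1 count in each group.

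**Figure D2:**
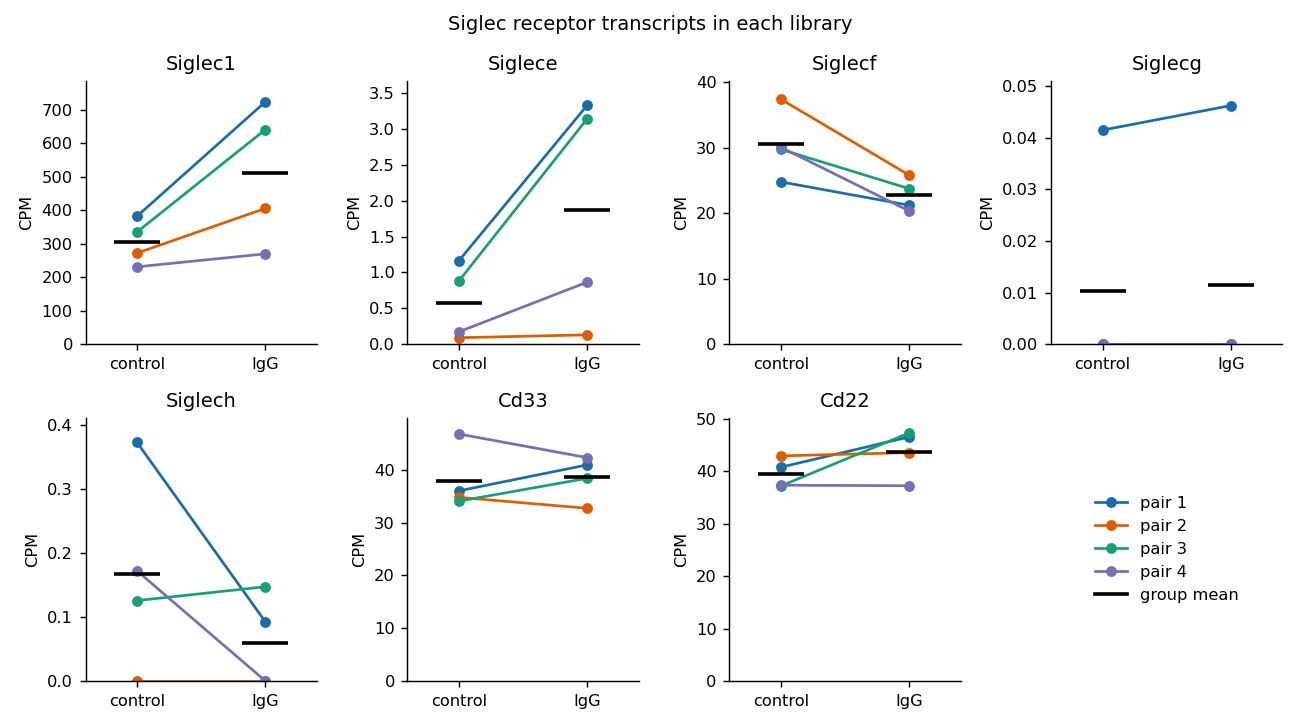
Levels of the 7 members in each library: CPM (vertical, a separate linear axis from 0 for each gene) in control and IgG (horizontal), with lines joining the 2 libraries of a pair and black bars at the group means. All 4 lines go up for Siglec1 and Siglece and down for Siglecf, while those of Cd33 and Cd22 go both ways.

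Over all 5 tested members, none was called at an adjusted p under 0.05 with the pairs in the model, where 69 of 17537 genes (0.393%) were called. At an unadjusted p under 0.05 there were 3 members, Siglec1, Siglece and Siglecf, where 10.2% of all genes tested had such a p. By the criterion of the study's methods (p under 0.01 and a log2 change beyond 0.5), 2 members were past it and higher, Siglec1 and Siglece, against 1.48% of all genes past it in that direction, and 0 were past it and lower, against 0.342%. Without the pairs in the model no member was past this criterion, where 0.844% of all genes were, and 0% of all genes had an adjusted p under 0.05. In that fit 2 members, Siglec1 and Siglecf, had an unadjusted p under 0.05, as had 7.01% of all genes.
Of the other fits to all 4 pairs, 4 called 2 members, Siglec1 and Siglece in each case, and 5 called 0. The 4 were the quasi-likelihood test with no filter on low counts (adjusted p = 0.000405 and 0.00180, with 1.2% of all genes called), the likelihood ratio test of edgeR (adjusted p = 0.00118 and 2.65e-05, with 1.86% of all genes called), DESeq2 (adjusted p = 0.000675 and 0.0380, with 1.32% called) and the quasi-likelihood test with trends on GC content and length removed (adjusted p = 0.0307 and 0.0238, with 1.24% called). No member was called with limma-voom, where 0.502% of all genes were, nor with RLE scaling, total counts alone, upper quartile scaling or at least 10 counts in every library, a filter that Siglece did not pass.
No member had groups free of overlap, while the IgG libraries all lay above the control libraries for 2.6% of all genes and all below them for 1.57%. Siglec1 and Siglece were higher with IgG in all 4 pairs, as were 10.4% of all genes, and Siglecf was lower in all 4, as were 8.47%. For 4 of the 5 tested members, Siglec1, Siglecf, Cd33 and Cd22, the log2 changes of pairs 1 and 3 both lay above those of pairs 2 and 4. Of all 17537 genes tested, 5778 had pairs 1 and 3 both above pairs 2 and 4, and 5154 had them both below. In either direction these made up 62.3%, so a split as such is not particular to the members. The part of the mitochondrial share in it was not tested.

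**Figure D3:**
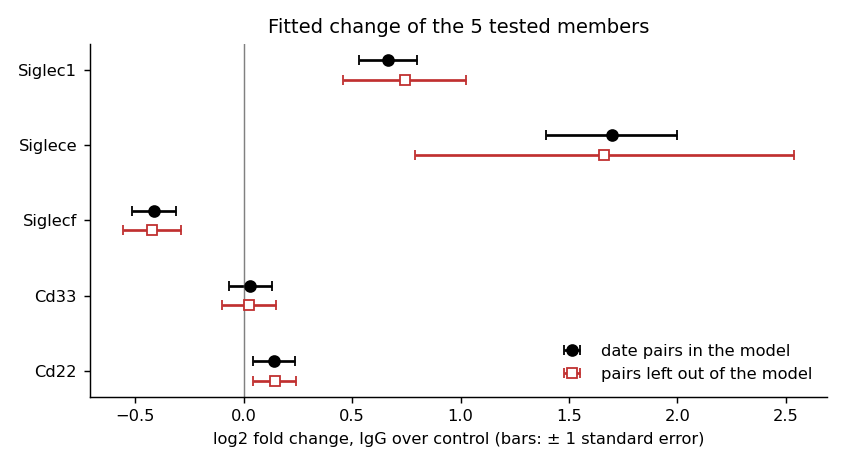
Fitted change of the 5 tested members: log2 fold change of IgG over control (horizontal) with bars of 1 standard error, from the model with the date pairs (black circles) and without them (red squares). The estimates lie close together in both models, at 0.67 and 0.74 for Siglec1 and 1.70 and 1.66 for Siglece, while the standard error of Siglece is 0.30 in one and 0.87 in the other.

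The promoters of the members could be read for 6 of the 7 genes, all but Siglec1, from RefSeq (GRCm38.p6), as 250 bases before and 50 bases after the start site. They are shown for Siglece, the member with the largest fitted change, and for Siglecf and Cd33, both on chromosome 7, which share a stretch of promoter and had fitted log2 changes of -0.41 and 0.03. On both strands the interferon-stimulated response element (ISRE) core GAAANNGAAA, the gamma-activated site (GAS) TTCNNNGAA and the core GNGGAAGT of the site of PU.1, the transcription factor that defines myeloid cells, were searched. These letters occur in 3.44%, 8.3% and 7.27% of the 32851 promoters of the table. None of the 6 members had the ISRE core, and Siglech had the GAS letters, from position -123 to -115 counted from its start site. Siglecf and Cd33 both had the PU.1 core, in capitals below, from position -24 to -17 in Siglecf and from -154 to -147 in Cd33. It lies in a run of 16 bases, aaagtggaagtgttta, that both promoters share. A match is a description of letters, and its absence says only that they are not in this window.
Siglecf promoter (chr7:43351091-43351390, plus strand): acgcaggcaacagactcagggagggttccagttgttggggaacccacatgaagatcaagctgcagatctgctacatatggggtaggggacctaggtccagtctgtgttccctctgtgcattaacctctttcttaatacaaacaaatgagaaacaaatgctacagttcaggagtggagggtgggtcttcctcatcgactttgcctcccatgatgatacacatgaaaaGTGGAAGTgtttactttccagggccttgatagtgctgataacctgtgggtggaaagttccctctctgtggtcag
Cd33 promoter (chr7:43533122-43533421, minus strand): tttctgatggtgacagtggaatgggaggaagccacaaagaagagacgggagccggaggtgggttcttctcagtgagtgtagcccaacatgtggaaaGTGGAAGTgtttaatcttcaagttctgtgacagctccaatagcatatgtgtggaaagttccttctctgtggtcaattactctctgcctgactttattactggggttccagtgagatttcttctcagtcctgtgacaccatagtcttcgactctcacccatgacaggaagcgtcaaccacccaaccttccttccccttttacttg
Siglece promoter (chr7:43660112-43660411, minus strand): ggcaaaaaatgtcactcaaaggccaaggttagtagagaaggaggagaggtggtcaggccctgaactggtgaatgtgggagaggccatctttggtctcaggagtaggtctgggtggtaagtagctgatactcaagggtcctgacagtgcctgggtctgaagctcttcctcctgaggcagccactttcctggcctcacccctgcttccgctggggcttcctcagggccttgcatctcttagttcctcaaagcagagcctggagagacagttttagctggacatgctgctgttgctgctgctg

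Members of the family resemble each other in sequence, which bears on how reads are assigned. The longest run of bases shared by annotated transcripts of 2 members was 55 bases, between Siglecf and Siglecg, and the next was 49 bases, between Cd33 and Cd22. The part of reads with several alignments in the members' counts was not tested.

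The other genes of the pathway were taken from 6 lists of 56 genes, of which 50 were tested, and 2 of these were called, both higher with IgG, where 0.393% of all genes were called. The log2 change was above 0 for 28 of the 50, as for 8609 of all 17537 genes (49.1%). The median log2 change was 0.02 over the 50 and 0.14 over the 5 tested members, beside -0.00514 over all 17537 genes. Of the 9 genes through which ITIM receptors signal, none was called and 6 had a log2 change above 0, with a median of 0.22.
Ptpn6, which encodes the phosphatase SHP-1, had 331, 287, 330 and 274 CPM in control libraries 1 to 4 and 364, 357, 341 and 360 CPM in IgG libraries 1 to 4. Its IgG libraries all lay above its control libraries, with a log2 change of 0.22 and a standard error of 0.10 (edgeR adjusted p = 0.487). Ptpn11, which encodes SHP-2, was at 140 ± 3.76 CPM without IgG and at 142 ± 6.29 CPM with it (SD, n = 4 each), with a log2 change of 0.02.
Lyn encodes a Src-family kinase that phosphorylates ITIM tyrosines. Lyn ranged from 178 to 218 CPM in control and from 206 to 309 CPM with IgG, with a log2 change of 0.39 and a standard error of 0.09 (edgeR adjusted p = 0.202). It was higher in all 4 pairs, and it was called by the likelihood ratio test of edgeR (adjusted p = 0.0446) and with trends on GC content and length removed (adjusted p = 0.0449).

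Of the 7 genes on the activating side, none was called and the median log2 change was 0.07. Tyrobp encodes DAP12, the partner of lysine-bearing Siglecs, and had 956, 1006, 1077 and 986 CPM in control libraries 1 to 4 and 666, 971, 691 and 1303 CPM in IgG libraries 1 to 4. IgG libraries 1 and 3, those with the high mitochondrial share, were below all control libraries, and IgG library 4 was above them. The log2 change was -0.20 with a standard error of 0.17 (edgeR adjusted p = 0.672), and in pairs 2 and 4 alone it was 0.18. Leaving out 1 pair gave -0.42 without pair 4, -0.26 without pair 2, -0.09 without pair 1 and -0.06 without pair 3.
Vav1, an exchange factor downstream of Syk, had groups that did not overlap, at 207 to 253 CPM in control and 255 to 315 CPM in IgG. Its log2 change was 0.30 with a standard error of 0.08 (edgeR adjusted p = 0.289). Plcg2, which encodes the phospholipase that signals below Syk, had a log2 change of 0.17 (edgeR adjusted p = 0.556).

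Among the genes of the ligand, sialic acid, the one called was Cmah. Cmah encodes the hydroxylase that turns N-acetylneuraminic into N-glycolylneuraminic acid, the form that several mouse Siglecs bind with a preference of their own. It had 3.94, 1.04, 4.48 and 0.818 CPM in control libraries 1 to 4 and 8.74, 2.35, 12.2 and 1.32 CPM in IgG libraries 1 to 4. As with Siglece, libraries 1 and 3 were high and libraries 2 and 4 low in both groups. Cmah rose by 1.17 on the log2 scale with a standard error of 0.18 (edgeR adjusted p = 0.0435) and was higher in all 4 pairs. The call was lost without pair 1 (adjusted p = 0.191), without pair 2 (0.258), without pair 3 (0.296) and without the pairs in the model (0.702), while the log2 change stayed at 1.18, 1.17, 1.04 and 1.25. Without pairs 1 and 3 together it was 0.95 (edgeR adjusted p = 0.405).
The 7 other genes of sialic acid synthesis, activation and turnover were not called, and the list of 8 had a median log2 change of -0.01. Of 20 sialyltransferases, which add the sugar to glycans, 17 were tested and none was called, with 6 above 0 and 11 below and a median of -0.06. St3gal6 had the smallest p of them, with 17.1 ± 2.03 CPM in control and 23.8 ± 5.35 CPM in IgG (SD, n = 4 each) and a log2 change of 0.46 (edgeR adjusted p = 0.261). St6galnac2 followed at a log2 change of -0.61 (edgeR adjusted p = 0.564), with 0.878 and 0.393 CPM in IgG libraries 1 and 3 against 1.21 to 1.66 CPM in control. Without pair 3 its log2 change was -0.30, and without pairs 1 and 3 it was -0.01.
Of 7 genes that cleave or export sialic acid or add or remove its acetyl groups, 5 were tested and none was called. Neu1, the lysosomal sialidase, was at 95.4 ± 0.501 CPM in control and at 99.0 ± 8.05 CPM with IgG (SD, n = 4 each), with a log2 change of 0.05. Siae, the sialic acid esterase, was at 0.25 (edgeR adjusted p = 0.553), and Casd1, the acetyltransferase whose product it cleaves, at 0.15 (adjusted p = 0.652). Leaving out 1 pair gave 0.15 (without pair 1) to 0.36 (without pair 4) for Siae, and 0.07 to 0.23 for Casd1 with the same pairs left out.

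Of 5 genes for protein ligands or carriers, 4 were tested and 1 was called. Lgals3bp, a secreted glycoprotein that binds galectin-3 and is a ligand of several human Siglecs, had 701, 503, 652 and 372 CPM in control libraries 1 to 4 and 1191, 703, 1109 and 612 CPM in IgG libraries 1 to 4. The groups overlapped, and each IgG library was above its own control. Lgals3bp rose by 0.68 on the log2 scale with a standard error of 0.10 (edgeR adjusted p = 0.0331). The call was lost without pair 1 (adjusted p = 0.193), pair 2 (0.183) or pair 3 (0.193) and without the pairs in the model (0.692), with log2 changes of 0.66 to 0.75, and it was kept without pairs 1 and 3 together, at 0.60.

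**Figure D4:**
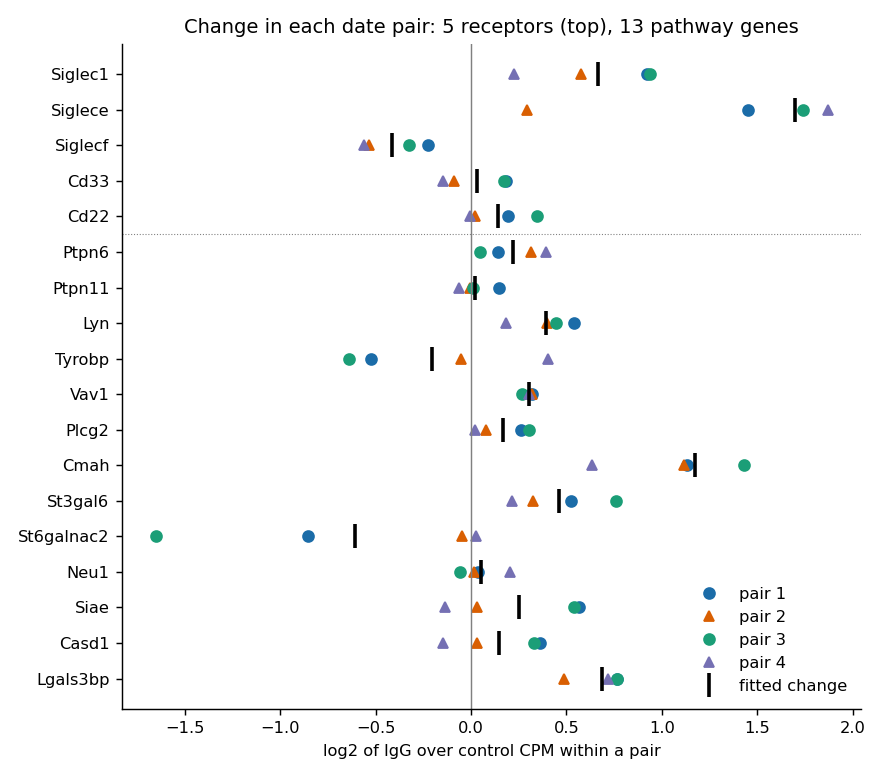
Change in each date pair for the 5 tested receptors (above the dotted line) and 13 pathway genes. The horizontal axis is log2 of IgG over control CPM within a pair, taken with a prior count of 2 added. Circles mark pairs 1 and 3, whose IgG libraries had the high mitochondrial share, triangles mark pairs 2 and 4, and a black bar marks the fitted change. Pairs 1 and 3 lie apart from pairs 2 and 4 for 15 of the 18 genes, all but Siglece, Vav1 and Neu1. Of all genes tested, 62.3% had such a split. All 4 pairs lie above 0 for Siglec1, Siglece, Ptpn6, Lyn, Vav1, Plcg2, Cmah, St3gal6 and Lgals3bp. Of all genes tested, 10.4% were higher with IgG in all 4 pairs. The pathway genes other than Tyrobp, Ptpn6, Ptpn11, Cmah and Neu1 were named for their p in these data.

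The 2 Siglecs outside the member list were measured as well. Mag, the myelin-associated glycoprotein (Siglec-4) of oligodendrocytes, had 66.4, 99.5, 64.0 and 86.8 CPM in control libraries 1 to 4 and 55.3, 93.3, 53.1 and 94.3 CPM in IgG libraries 1 to 4, with a log2 change of -0.12 (edgeR adjusted p = 0.659), or -0.22 to -0.08 with 1 pair left out. The level of Mag stands beside oligodendrocyte markers that sum to 997 CPM or more in each library. Siglec15, a DAP12-coupled receptor of osteoclasts and macrophages, had 13 to 42 counts in a library and a log2 change of -0.06 with a standard error of 0.30 (edgeR adjusted p = 0.947).

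The genes most like each member were taken as those with the smallest root mean square (RMS) difference in centered log2 CPM over the 8 libraries, among 11928 tested genes of at least 5 CPM on average. All points of such a comparison share the libraries, so the differences are a description. For Siglec1 they were Gm28177 (RMS difference 0.0850), Irgm1 (0.0873), an interferon-inducible GTPase, and Ms4a6d (0.0917), a macrophage membrane protein, where the median over all candidates was 0.551. These 3 genes had log2 changes of 0.61, 0.65 and 0.67, and Irgm1 was called (edgeR adjusted p = 0.0444). The call was lost without pair 1, 2 or 3 (adjusted p = 0.219 to 0.252), without the pairs in the model (0.692), with total counts alone (0.0741) and with upper quartile scaling (0.0502). The log2 change of Irgm1 was 0.59 to 0.70 with 1 pair left out and 0.70 without the pairs in the model.
For Siglece the nearest genes were farther off, at 0.515 for Gm8815, 0.731 for Gm10499 and 0.808 for Gm8810 against a median of 1.56. All 3 are annotated as pseudogenes and lie near each other on chromosome 17 (chr17:36066108-36145923), among the H2-T genes of the major histocompatibility complex, whereas Siglece is on chromosome 7. Gm10499 had 26.3, 8.12, 35.1 and 6.24 CPM in control libraries 1 to 4 and 42.4, 12.7, 58.7 and 15.1 CPM in IgG libraries 1 to 4. Its libraries 1 and 3 were thus high in both groups, as for Siglec1, Siglece, Cmah and Lgals3bp. Across all genes too, deviations from the group means correlated above 0 between libraries 1 and 3 of opposite groups (0.144 and 0.198) and between libraries 2 and 4 (0.164 and 0.167). The other 8 combinations of unequal number correlated below 0. Deviations from a group mean sum to 0 for each gene, so values above 0 in some combinations bring values below 0 in others. Since libraries of a number share a date, differences between the cells of a date and between dates cannot be told apart.
The genes nearest to Siglecf were Fam214a (0.0941), Pde10a (0.114) and Cacna1h (0.124) against a median of 0.332, with log2 changes of -0.38, -0.28 and -0.43 and none called. Cd33 was nearest to Bhlhe41 (0.0546), a transcription factor of microglia and macrophages, Gpnmb (0.0662) and Gm43909 (0.0688), with a median of 0.242, and control library 4 was the highest control library for all 3 as for Cd33. Gm43909 lies inside Bhlhe41 on chromosome 6. Cd22 was nearest to Ambra1 (0.0437), Ggnbp2 (0.0463) and Gm10785 (0.0463), with a median of 0.203.

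**Figure D5:**
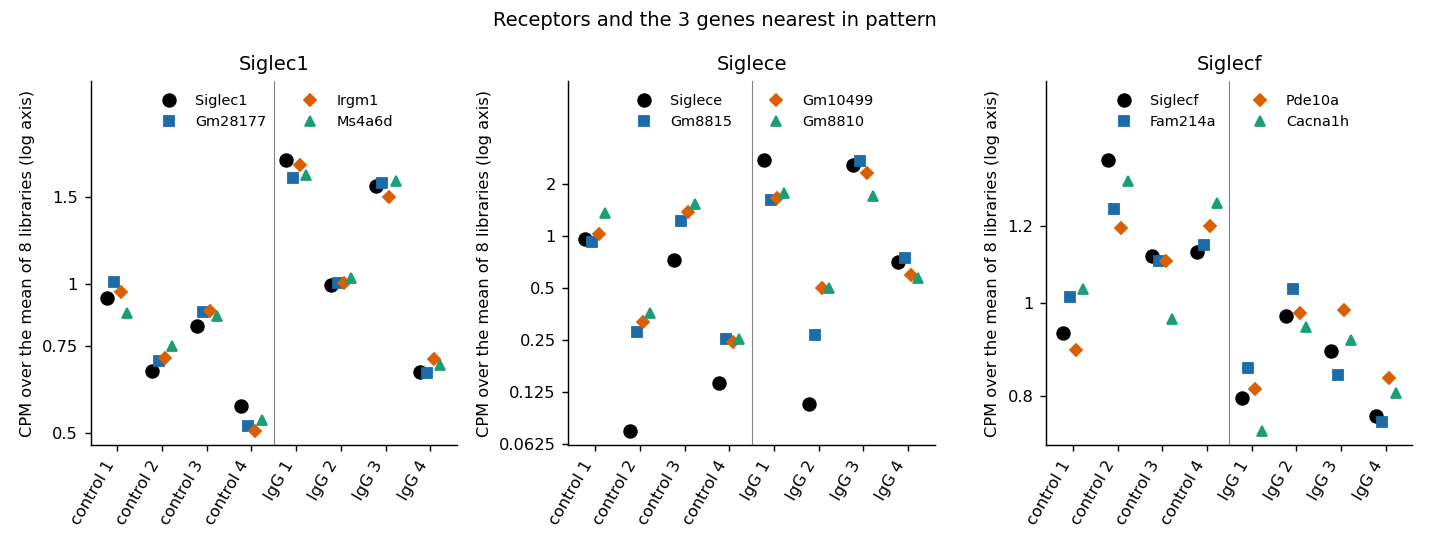
Siglec1, Siglece and Siglecf (black) with the 3 genes nearest to each in pattern (colors): CPM divided by the mean over the 8 libraries (vertical, log axis) in each library (horizontal), with a grey line between control and IgG. Siglec1 and its 3 genes almost coincide, while Siglece lies below its 3 genes in control libraries 2, 3 and 4 and IgG library 2, and libraries 1 and 3 are the high ones of each group for all 4 genes of that panel.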

How the data were processed

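Poly(A) RNA was sequenced in 4 control and 4 IgG libraries. The deposited table holds raw counts by Ensembl identifier, and the authors filtered the reads and aligned them to mm10 (GRCm38) with HISAT2. The processing notes of the submitters also name SAMtools 1.12, Picard 2.26.3, featureCounts and edgeR 3.36.0, with HISAT2 2.2.1. The annotation, the use of strand and the treatment of reads with several alignments are not given in the sources used here. Symbols, positions and exon lengths came from GENCODE M21 (GRCm38), in which 55144 of 55385 identifiers were found.

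Counts were filtered (filterByExpr), scaled by TMM and fitted in edgeR 4.0.16 (R 4.3.3, quasi-likelihood test), with the pair (the replicate block) and the group as terms and Benjamini-Hochberg adjustment over all 17537 genes tested, at an adjusted p under 0.05. The procedure was tested on simulated data. The numbers pair the samples by the shared date in the labels, and deviations from the group means correlated within pairs (0.408, 0.329, 0.256 and 0.315 over 15669 genes). With the pairs in the model, the p-values measure the spread of the IgG-to-control difference between these pairs only. Without the pairs in the model they also take in the spread between dates. Replicates of a group differed by more than sampling noise. Alternatives were limma 3.58.1 (voom), DESeq2 1.42.0, the likelihood ratio test, other scalings and filters, trends on GC content and length removed, and pairs left out. Counting floors cover counting error only. CPM per kb used the union of exons. Log2 changes within a pair were taken with a prior count of 2 added.

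The members and the gene lists were chosen with earlier results of these data known. Named genes were the 7 members, Mag and Siglec15, the list genes with an adjusted p under 0.05 (otherwise the 2 with the smallest p of each list), Tyrobp, Ptpn6, Ptpn11, Cmah and Neu1, and the 3 genes nearest to each tested member. Some items that this rule names are not reported here. Gm29439 was named after its overlap with Cd22 was seen. Protein sequences and a promoter of Siglec1 were not used here.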

Additional observations from a re-analysis of the deposited data

Results flagged for a closer look

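A library was looked at again where its gap to the nearest library, divided by the range of its group of 4, was above Dixon's 95% critical value. Among the 14 groups of the 7 members 3 had such a library. Chance gives about 1 in 20 for normally distributed values, a rate that does not apply to the counts of Siglecg. For Cd33, control library 4 at 46.8 CPM stood 0.846 of the range above the others, which had 34.0 to 36.0 CPM. For Siglecg, control library 1 and IgG library 1 each stood 1.000 of the range above the other libraries of their group, which were at 0. Each value is a single count beside counts of 0, for which the ratio is 1.000 by construction.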

How the results depend on the processing

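With no replicate block the log2 changes of the members kept their sign, no member was past the criterion of p under 0.01 and a log2 change beyond 0.5 (2 with the block), and 0 pathway genes were called (2 with the block). The members called numbered 0 with the block and 0 without it.

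Siglec1 and Siglece were called, 2 members against 0, under the likelihood ratio test (0.67 and 1.70), DESeq2 (0.66 and 1.69), no filter (0.66 and 1.69) and GC and length trends removed (0.74 and 1.78, all with the replicate block). The cause was not tested. Leaving out 1 pair called 0 to 1 members, with Siglec1 at 0.58 to 0.80, Siglece at 1.56 to 1.82, Siglecf at -0.47 to -0.37, Cd33 at -0.0204 to 0.0740 and Cd22 at 0.0708 to 0.178, and the pathway genes called numbered 0 to 2. The likelihood ratio test and the fit with GC and length trends removed called 3 pathway genes, Lyn beside Cmah and Lgals3bp. Without replicates 1 and 3, 1 member was called and 1 past the criterion, Siglecf at -0.55, and 1 pathway gene was called. With at least 10 counts in every library 1 member was past the criterion, since Siglece was not tested there. Cmah lost its call under scaling by total counts alone, upper quartile scaling and that filter, leaving 1 pathway gene each time. Scaling by total counts alone moved the median of all genes to -0.11 and brought Siglecf past the criterion at -0.51, so that 3 members were past it. The share of all genes past the criterion was taken only in the main fit and without the block, so this count has no such share beside it.

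Cd33 and some other genes not called turned sign. Cd33 was at -0.0696 with total counts alone, -0.00733 with upper quartile scaling, -0.0370 with GC and length trends removed and -0.117 without replicates 1 and 3. Without replicates 1 and 3, Mag was at 0.0139, Siglec15 at 0.316, Tyrobp at 0.177, Ptpn11 at -0.0340, Siae at -0.0509, Casd1 at -0.0579, Ambra1 at -0.00440, Bhlhe41 at -0.149, Gpnmb at -0.0679 and Gm43909 at -0.156. Siglec15 was at 0.247 with GC and length trends removed. With total counts alone Ptpn11 was at -0.0788, Neu1 at -0.0503, Bhlhe41 at -0.0925, Gpnmb at -0.0563 and Gm43909 at -0.0745. With upper quartile scaling Ptpn11 was at -0.0166, Bhlhe41 at -0.0303 and Gm43909 at -0.0123. With at least 10 counts in every library Ptpn11 was at -0.00687, Bhlhe41 at -0.0206 and Gm43909 at -0.00269, and with GC and length trends removed Bhlhe41 was at -0.00576. Leaving out 1 pair gave -0.289 to 0.198 for Siglec15, -0.0189 to 0.0339 for Ptpn11, -0.0176 to 0.0868 for Neu1, -0.0569 to 0.0646 for Bhlhe41, -0.00325 to 0.106 for Gpnmb and -0.0692 to 0.0869 for Gm43909.

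Depth limits Siglech, at 0 to 9 counts in a library, Siglecg, at 0 to 1, and pair 2 of Siglece, at 2 and 3. The order of the members per length was the same with the longest transcript and with total counts alone.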
